A study of Mus musculus with 9 samples.

Results

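The genes described here are 100 that were higher in retinas with vein occlusion than in laser-treated control retinas, while control and untreated retinas lay close together. They were chosen by their values in these samples. The deposited counts were divided by each sample's total and multiplied by 1000000 to give counts in 1000000 (CPM), and 0.5 was added. Genes were kept if their mean count in the samples with retinal vein occlusion (RVO) was at least 20 and if the log2 ratio of the control mean to the untreated mean was between -0.3 and 0.3. They were then ranked by the lowest RVO value divided by the highest control value, and the 100 genes with the highest ratio were taken. Of 48679 names in the table, 15404 had enough counts, 6388 of these also stayed within the limit on the laser effect, and 1795 of those had every RVO sample above every control sample. All statements on how the 100 genes differ between RVO, control and untreated samples therefore describe the selection. Counts of members called by a fit over all genes are given further below as a description only.

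RNA was sequenced from C57BL/6J mice aged 12 weeks. Each sample was a pool of 6 retinas from 6 mice, and n counts these pools (n = 3 in each group). In the RVO group all veins of 1 eye had been closed by laser after injection of eosin Y, a dye that sensitizes the vessels to light. The control group was made of the fellow eyes, which received the same dye and a comparable laser treatment of the retina between the large vessels, and both groups were collected on day 2 (d2). The untreated group came from other mice that had received neither dye nor laser. Whether the pools of equal number held eyes of the same mice is not given in the sources used here, and with few pools p-values measure the spread between these pools only.

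When oxygen falls, prolyl hydroxylases no longer mark the alpha subunits of hypoxia-inducible factors (HIF) for degradation, and the factors bind short DNA elements near genes for blood vessel growth, glucose uptake and glycolysis. Proteins that fold poorly in the endoplasmic reticulum start a separate response, which slows translation and induces chaperones, and oxidants release the factor NRF2 to induce glutathione synthesis. In the retina, the glia and neurons of the inner layers depend on the vessels that are drained by the occluded veins, and Vegfa from hypoxic retinal cells drives vascular leakage and vessel growth.

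Total counts per sample were 21022997 to 28993921 in the RVO group, 18897218 to 23419497 in the control group and 12377572 to 15245869 in the untreated group. The second RVO sample (RVO 2) stood apart. Chi-square per degree of freedom over genes was 38.3 against RVO 1 and 20.7 against RVO 3, but 6.62 between RVO 1 and RVO 3, and 2.53 to 6.81 within the other groups. The marker genes of retinal ganglion cells summed to 348, 723 and 441 CPM in RVO 1, RVO 2 and RVO 3. Those of the lens, which is not part of the retina, summed to 255, 8000 and 744 CPM in these samples, but also to 3782 CPM in the first control sample, against 276 and 561 CPM in the other control samples and 5.38 to 30.2 CPM in untreated samples. If RVO 2 were left out of the selection, 50 of the 100 genes would be kept. Vegfa, Ero1l, Gja1, Gclm, P4ha1 and Sap30 would be lost. Of these, Vegfa, Ero1l, P4ha1 and Gja1 were not lowest in RVO 2. Their ratios would stay the same, and other genes would rank above them. Without the first control sample 52 of the 100 genes would be kept, and without any 1 other sample 63 to 89. Egln3 would be lost without the second control or the first untreated sample, and Slc13a4 without the latter. Markers of rods were present in every sample, with 52755 to 55311 CPM in RVO, 62034 to 73920 CPM after control laser and 81288 to 84662 CPM in untreated samples. The sums of inner retinal neurons were lower in RVO than in control samples without overlap, with 348 to 723 against 1090 to 1137 CPM for ganglion cells, 369 to 697 against 1013 to 1067 CPM for amacrine cells, 623 to 1017 against 1356 to 1438 CPM for bipolar cells and 54.0 to 148 against 231 to 252 CPM for horizontal cells. Sums were also lower without overlap for rods and for cones (586 to 866 against 1075 to 1338 CPM). The same held for Mueller glia (2459 to 3609 against 4067 to 4573 CPM) and endothelial cells (271 to 413 against 456 to 517 CPM). Monocyte, neutrophil and red blood cell sums were higher. By edgeR, 2 of 11 ganglion cell, 1 of 11 bipolar, 0 of 10 amacrine and 0 of 6 horizontal cell markers were called lower. DESeq2 called 10, 8, 10 and 4, and over all 16874 genes edgeR called 107 lower. The part of these shifts in the levels of the members was not tested. In bulk retina, fewer cells of a type and less RNA per cell cannot be told apart.

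The 100 genes spread over 19 chromosomes, and all of them matched a gene of the GENCODE vM21 annotation (GRCm38). The match was by name and to a later release than the study had used for counting. Single names could therefore stand for other genes. Of these, 91 were protein coding, and the other 9 comprised 3 lincRNAs, 2 processed transcripts, 1 pseudogene, 1 antisense RNA, 1 immunoglobulin constant region and 1 transcript of unconfirmed coding status. Mean RVO levels ran from 0.864 CPM for Rgs14 to 479 CPM for Hspa9, with a median of 11.9 CPM. There were 39 genes below 5 CPM, 38 between 5 and 50 CPM, and 23 above. The median RVO mean was 2.34 times the control mean. A ratio of means of at least 2 was found for 63 genes, and of at least 3 for 24. Control means were under 0.5 CPM for 17 genes, so their ratios rest on few reads. The untreated samples entered the selection through their mean, which its limits place below every RVO sample. Each untreated sample also lay below every RVO sample for all 100 genes, which largely follows from these limits.

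**Figure D1:**
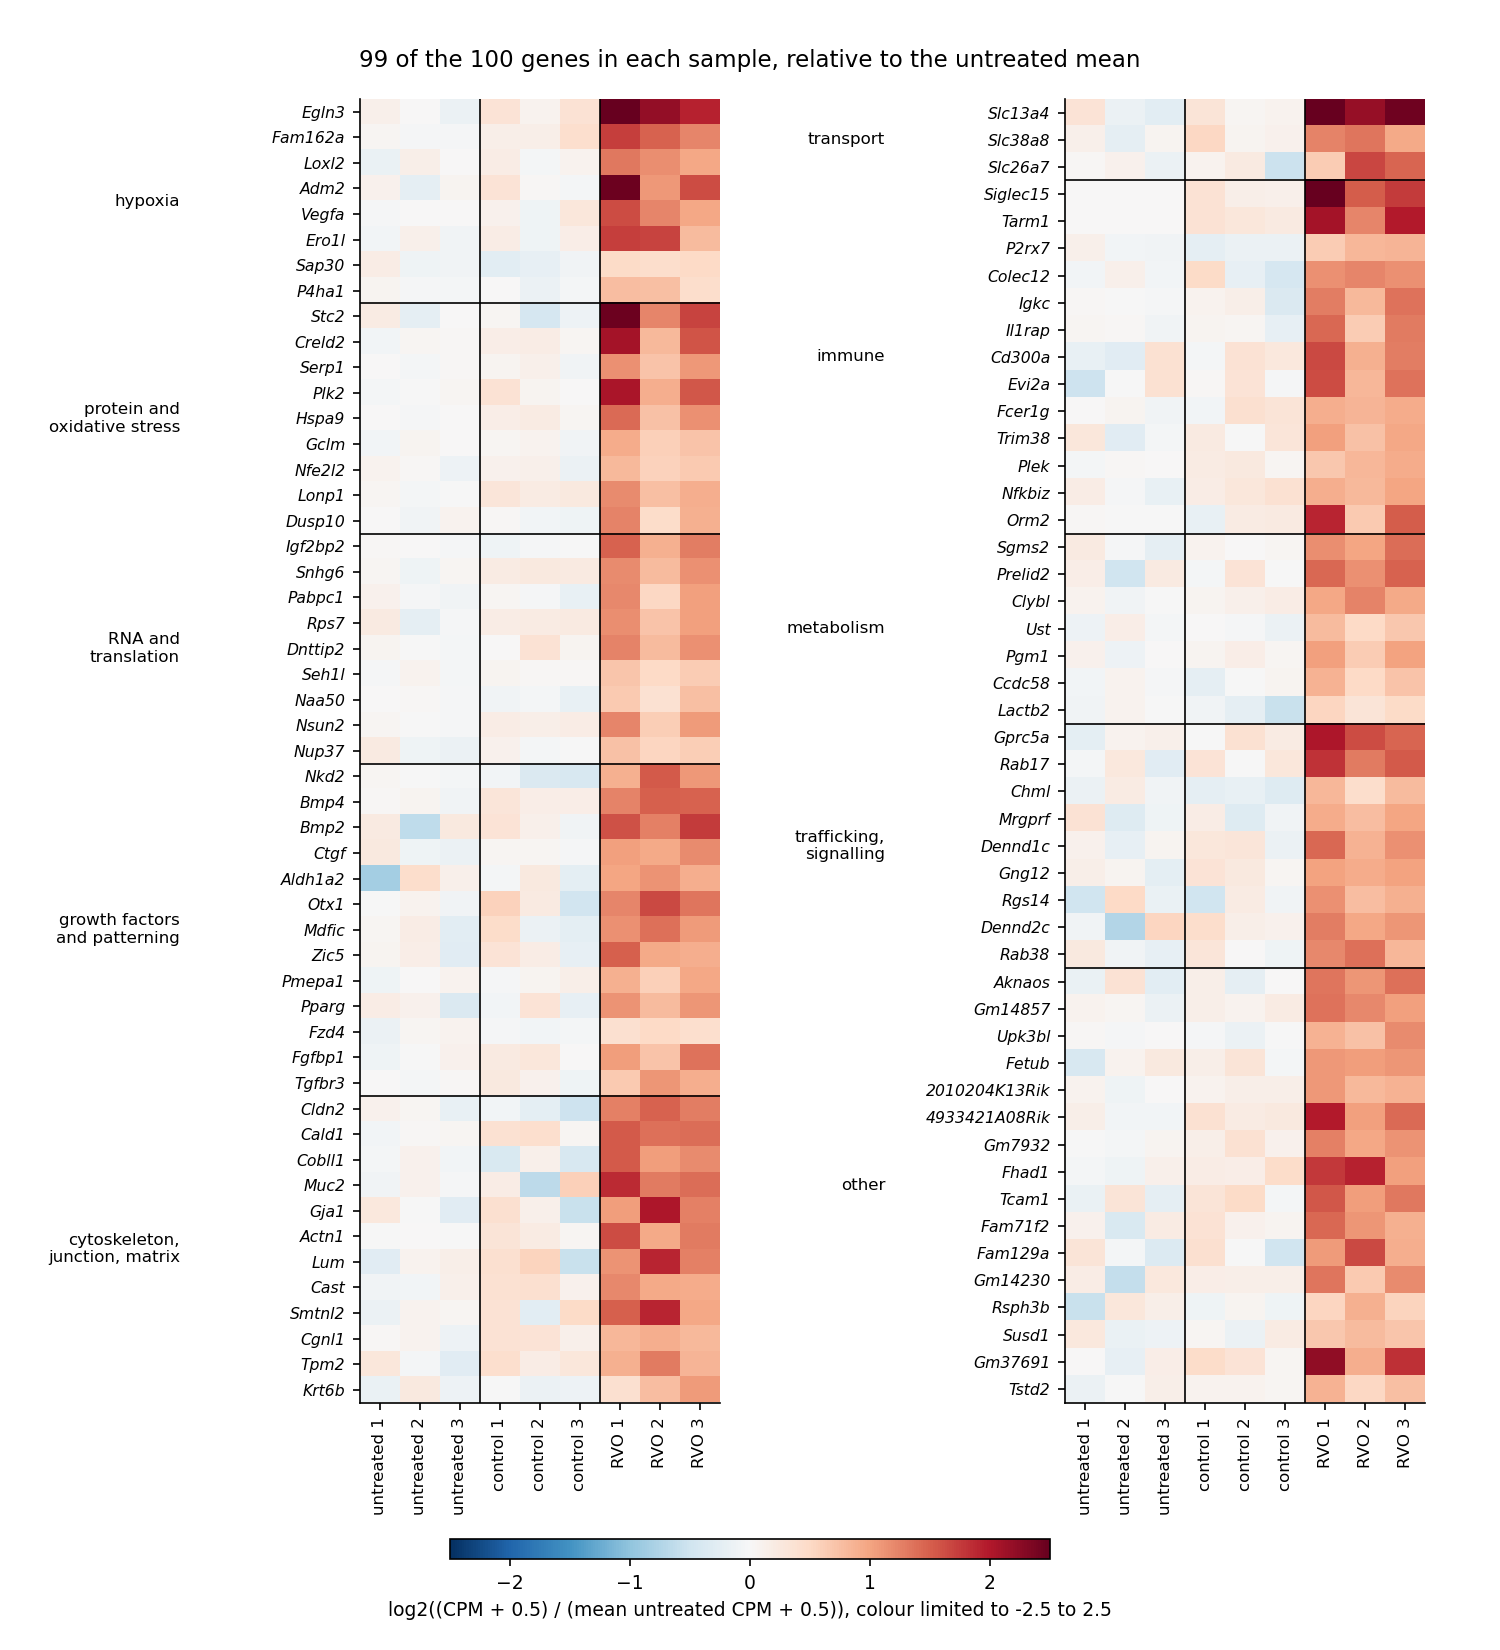
Colour gives log2 of CPM + 0.5 in each of the 9 samples (columns) relative to the untreated mean plus 0.5, for 99 of the 100 genes (rows), which are grouped by role as in the text. Control columns stay near the untreated columns, as the selection required, and RVO columns are higher, with RVO 1 the highest for 58 of all 100 genes and RVO 2 the lowest for 64.

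Of the genes regulated by hypoxia, Egln3 (chr12:54178981-54203860, minus strand), the oxygen-sensing prolyl hydroxylase that is itself induced by HIF, had the second highest ratio of the 100 genes and the others lower ranks. Its level was 53.1, 31.3 and 25.8 CPM in the RVO samples, 8.25, 6.88 and 8.37 CPM in the control samples and 7.03, 6.50 and 5.71 CPM in the untreated samples. Hence the lowest RVO sample was about 3-fold above the highest control sample, while control and untreated samples lay close together. Vegfa (chr17:46016993-46032369, minus strand), the main growth and permeability factor for vessels, was present at 440.4, 330.5 and 277 CPM in RVO, at 153, 131 and 173 CPM after control laser and at 139, 142 and 143 CPM in untreated samples. The mean was 349 ± 83.3 CPM in RVO and 152 ± 21.3 CPM in control samples (SD, n = 3), and the untreated values lay within the control range.

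Fam162a, a mitochondrial protein induced by hypoxia, was at 101, 85.2 and 71.5 CPM in RVO samples, 33.7, 33.5 and 40.5 CPM in control samples and 31.3, 29.7 and 29.7 CPM in untreated samples. Ero1l, the oxidase that forms disulfide bonds in the endoplasmic reticulum, was at 91.2, 88.4 and 47.5 CPM in RVO, 30.9, 25.2 and 30.2 CPM after control laser and 25.9, 29.7 and 25.5 CPM in untreated samples. P4ha1, a subunit of the enzyme that hydroxylates proline in collagen, was near the end of the ranking, with 115, 112 and 90.6 CPM in RVO, 67.3, 60.4 and 65.0 CPM after control laser and 70.5, 66.0 and 64.6 CPM in untreated samples. For each of these genes the groups RVO and control did not overlap, and RVO 3 was the lowest RVO sample.

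Loxl2, which cross-links collagen, was at 14.1, 12.6 and 10.8 CPM in RVO samples, against 6.11, 5.13 and 5.72 CPM after control laser and 4.69, 5.93 and 5.38 CPM in untreated samples. Adm2, a vasodilator peptide of the adrenomedullin family, was low, with 4.45, 1.43 and 2.33 CPM in RVO, 0.653, 0.423 and 0.384 CPM after control laser and 0.485, 0.283 and 0.459 CPM in untreated samples. Sap30, a subunit of a histone deacetylase complex, was at 26.8, 26.1 and 27.2 CPM in RVO samples and at 15.8, 16.5 and 18.0 CPM in control samples, and its untreated values of 21.7, 17.6 and 18.0 CPM reached above the control range. These 8 genes, with Stc2 below, form the hypoxia-related members. Per kilobase of exon, the highest mean RVO level among them was that of Fam162a (101.1 CPM per kb), followed by Vegfa with 81.5 CPM per kb.

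The sequence upstream of the start of 4 of these genes is shown because each holds the core that HIF binds, ACGTG or GCGTG, on either strand. Each stretch gives 250 bases before the RefSeq start (GRCm38.p6), 5' to 3' on the strand of the gene, and capitals mark the cores. The Egln3 stretch is chr12:54203875-54204124, minus strand, with 1 core starting 229 bases before the start. That of Stc2 is chr11:31370062-31370311, minus strand, with 2 cores 240 and 231 bases before the start. That of P4ha1 is chr10:59323046-59323295, plus strand, with 3 cores 163, 126 and 16 bases before it. That of Sap30 is chr8:57487861-57488110, minus strand, with 2 cores 147 and 103 bases before it.
Egln3: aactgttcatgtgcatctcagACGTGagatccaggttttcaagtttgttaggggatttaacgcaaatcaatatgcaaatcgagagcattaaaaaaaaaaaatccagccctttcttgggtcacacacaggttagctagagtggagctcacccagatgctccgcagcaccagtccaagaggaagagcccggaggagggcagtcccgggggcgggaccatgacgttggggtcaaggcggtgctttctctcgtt
Stc2: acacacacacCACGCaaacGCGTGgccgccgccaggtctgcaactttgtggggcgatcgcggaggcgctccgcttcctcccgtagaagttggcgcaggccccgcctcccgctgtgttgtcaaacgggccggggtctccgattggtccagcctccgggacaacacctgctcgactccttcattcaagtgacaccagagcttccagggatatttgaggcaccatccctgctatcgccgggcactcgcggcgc
P4ha1: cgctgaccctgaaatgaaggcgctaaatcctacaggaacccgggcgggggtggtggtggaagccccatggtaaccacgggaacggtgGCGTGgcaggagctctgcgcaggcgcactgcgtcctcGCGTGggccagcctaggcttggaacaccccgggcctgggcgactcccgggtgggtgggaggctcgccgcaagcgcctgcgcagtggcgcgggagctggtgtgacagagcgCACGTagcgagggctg
Sap30: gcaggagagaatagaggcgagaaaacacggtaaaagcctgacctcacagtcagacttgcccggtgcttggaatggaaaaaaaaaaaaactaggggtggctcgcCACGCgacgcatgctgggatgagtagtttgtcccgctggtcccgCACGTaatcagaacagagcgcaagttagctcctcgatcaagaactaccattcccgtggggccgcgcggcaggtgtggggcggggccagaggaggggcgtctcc

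A promoter sequence, covering 250 bases before and 50 bases after the start, was found in the RefSeq table for 72 of the 100 genes. A HIF core was present in 40 of these 72 (55.6%, 95% Wilson interval 44.1 to 66.5%). The share was 64.8% of 12313 genes tested in RVO versus control and 46.7% of all 27025 genes with a promoter in the table. The share of the members was thus below that of the genes tested, which lies within the interval. Of the 8 hypoxia genes described above, without Stc2, 7 were in the table and 6 of these held a core before any of their RefSeq starts. For Vegfa the core was found only before a second, internal start, and the window before its main start held none. In the wider list of HIF targets described below the core was found in 36 of 41 (87.8%), where the GC content was higher as well (median 64.7% against 60.3% for the genes tested). The AP-1 element TGANTCA was found in 9.72% of the members and 6.49% of the genes tested, the cAMP response element TGACGTCA in 1.39% and 3.40%, and the Sp1 box GGGCGG in 55.6% and 65.6%. The amino acid response element TGATGCAA was found in 0 of 72 members and in 0.674% of the genes tested. All motifs were searched on both strands. The cAMP response element contains the letters ACGT, which the HIF core shares.

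A group of 9 genes serves protein folding, mitochondria, the defence against oxidants or stress signalling. Stc2, a secreted glycoprotein induced both by hypoxia and by stress of the endoplasmic reticulum, was at 37.8, 15.7 and 22.0 CPM in RVO samples, 6.76, 4.71 and 5.89 CPM in control samples and 7.51, 5.44 and 6.49 CPM in untreated samples. Creld2, a chaperone-like protein of the endoplasmic reticulum, was at 119, 49.4 and 83.8 CPM in RVO, 31.5, 31.8 and 29.0 CPM after control laser and 26.6, 28.8 and 28.5 CPM in untreated samples. Gclm, the regulatory subunit of the enzyme that limits glutathione synthesis and a target of NRF2, was at 87.6, 69.2 and 75.3 CPM in RVO, 47.0, 48.6 and 43.0 CPM after control laser and 43.3, 47.7 and 46.1 CPM in untreated samples. The order of the RVO samples was the same for Stc2, Creld2 and Gclm, with RVO 1 highest and RVO 2 lowest.

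Nfe2l2, the gene of NRF2, was in the same group, at 60.2 ± 5.16 CPM in RVO samples compared to 38.0 ± 3.96 CPM in control samples (SD, n = 3). Hspa9, the mitochondrial chaperone of the Hsp70 family, was at 479 ± 110.5 and 243 ± 12.6 CPM, and Lonp1, the protease of the mitochondrial matrix, at 159.8 ± 25.1 and 97.7 ± 3.57 CPM. Serp1, which protects membrane proteins during stress of the endoplasmic reticulum, was at 121 ± 18.3 and 62.3 ± 4.74 CPM. Plk2, a kinase induced by stress, was at 92.0 ± 34.9 and 34.2 ± 4.79 CPM, and Dusp10, a phosphatase of stress-activated kinases, at 40.8 ± 11.1 and 21.0 ± 1.05 CPM. Their ratios of means were between 1.59 for Nfe2l2 and 2.69 for Plk2.

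Another 9 genes act on RNA, translation or nuclear transport. Igf2bp2, which binds and stabilizes mRNA, was at 37.4, 24.8 and 32.8 CPM in RVO samples, 12.2, 12.9 and 13.2 CPM in control samples and 13.4, 13.2 and 13.0 CPM in untreated samples. The 6 samples without occlusion spanned 12.2 to 13.4 CPM. Pabpc1, the cytoplasmic poly(A)-binding protein, was at 330.4 ± 75.1 CPM in RVO and 166 ± 13.9 CPM in control samples, and the nucleolar gene Dnttip2 at 252 ± 38.5 and 134 ± 18.3 CPM (SD, n = 3). Nsun2, an RNA methyltransferase, Seh1l and Nup37, both of the nuclear pore, Naa50, an acetyltransferase for protein N-termini, and Snhg6, a host gene of small nucleolar RNAs, had ratios of means between 1.48 and 1.79. Rps7 was listed at only 4.58 ± 0.805 CPM in RVO samples. Ribosomal protein genes have many near-identical pseudogenes, and since the handling of reads with several matches is not given in the sources used here, the value for Rps7 is uncertain.

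Secreted growth factors and patterning genes made up 13 members. Bmp4 and Bmp2, ligands of the bone morphogenetic protein family, held neighbouring ranks. Bmp4 was at 12.1, 14.6 and 14.3 CPM in RVO samples, 6.11, 5.50 and 5.51 CPM in control samples and 4.93, 5.09 and 4.53 CPM in untreated samples. Bmp2 was at 9.17, 7.17 and 10.3 CPM in RVO, 3.54, 2.96 and 2.52 CPM after control laser and 3.23, 1.55 and 3.28 CPM in untreated samples. Control and untreated values overlapped for Bmp2, whereas all control values were above all untreated values for Bmp4.

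Ctgf, a matrix protein induced by TGF-beta and by stretch, was at 51.8, 49.4 and 57.9 CPM in RVO samples, 26.3, 26.0 and 24.7 CPM after control laser and 29.8, 23.3 and 22.6 CPM in untreated samples. Nkd2, an inhibitor of Wnt signalling, was at 5.45, 8.78 and 6.33 CPM in RVO, 2.56, 2.01 and 1.92 CPM after control laser and 2.83, 2.68 and 2.62 CPM in untreated samples. All control values of Nkd2 were below all untreated values. Pmepa1, which is induced by TGF-beta and limits its signalling, was at 112 ± 14.3 and 65.5 ± 4.10 CPM in RVO and control samples, and Tgfbr3, a co-receptor for TGF-beta, at 16.7 ± 2.69 and 9.26 ± 1.14 CPM (SD, n = 3). Fzd4, the receptor for norrin on retinal vessels, had the smallest ratio of means of all members (1.41), with 37.6, 40.1 and 37.9 CPM in RVO samples against 27.8, 26.8 and 27.2 CPM in control samples. The others were Otx1 and Zic5 (transcription factors of the developing brain), Aldh1a2 (retinoic acid synthesis), Mdfic, Pparg and Fgfbp1, with mean RVO levels of 0.958 to 15.9 CPM.

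The highest rank was held by a transporter. Slc13a4 (chr6:35267957-35308131, minus strand), which carries sulfate together with sodium, was at 39.2, 28.7 and 34.2 CPM in RVO samples, 7.55, 6.19 and 6.36 CPM in control samples and 7.68, 5.37 and 4.85 CPM in untreated samples. The mean RVO level was 5.08 times the mean control level, and even the lowest RVO sample was 3.63 times the highest control sample after addition of 0.5 CPM. Slc26a7, an anion exchanger, had unequal RVO values of 21.9, 45.4 and 38.7 CPM, and Slc38a8, an amino acid transporter, was at 2.88 ± 0.450 CPM in RVO against 1.27 ± 0.317 CPM in control samples.

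Genes for the cytoskeleton, cell junctions, matrix or surface formed a group of 12. Cldn2, a tight junction protein that forms pores for cations, was at 13.4, 15.7 and 13.6 CPM in RVO samples, 5.08, 4.45 and 3.54 CPM in control samples and 5.82, 5.51 and 4.66 CPM in untreated samples. Cald1, which binds actin and myosin, was at 103, 92.7 and 94.5 CPM in RVO, 46.4, 47.3 and 36.7 CPM after control laser and 33.8, 36.1 and 36.5 CPM in untreated samples. Cobll1, an actin-binding protein, was at 14.7, 10.3 and 11.5 CPM in RVO, 3.54, 5.24 and 3.50 CPM after control laser and 4.61, 5.16 and 4.53 CPM in untreated samples. Relative to their mean, the RVO values of these genes spanned less than those of Egln3 or Stc2.

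Gja1, the gap junction protein connexin 43 and a marker of astrocytes, was at 59.7, 119 and 69.3 CPM in RVO samples, 38.3, 31.5 and 19.3 CPM after control laser and 34.5, 28.4 and 23.5 CPM in untreated samples. The 7 astrocyte markers, of which Gja1 was the only member, summed to 372 to 549 CPM in RVO, 383 to 556 CPM after control laser and 124 to 134 CPM in untreated samples. No astrocyte marker was at 0. Gja1 was highest in RVO 2 and in the first control sample, which also had the highest lens marker sums of their groups (8000 and 3782 CPM). In untreated samples Gja1 was highest in the first sample and the lens sum in the second. The part of lens or other cells in the level of Gja1 was not tested. Actn1, which cross-links actin, was at 103 ± 24.9 and 47.1 ± 4.37 CPM in RVO and control samples (SD, n = 3). Cast, Cgnl1, Smtnl2, Tpm2, Lum, Krt6b and Muc2 completed the group, with ratios of means from 1.49 for Cgnl1 to 4.00 for Lum, which had only 0.430 ± 0.342 CPM in control samples.

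Of the 13 immune genes, several were nearly absent without occlusion. Siglec15, a lectin of myeloid cells, was at 3.04, 0.935 and 1.19 CPM in RVO samples and at 0.140, 0.0529 and 0.0427 CPM in control samples. No read was counted in any untreated sample. Tarm1, an activating receptor of myeloid cells, was at 1.62, 0.668 and 1.47 CPM in RVO, at 0.140, 0.106 and 0.0854 CPM after control laser and at 0 in all untreated samples. The highest count of Siglec15 and of Tarm1 in a control sample was 3, therefore no fold is given. Both genes had reads in every control sample but none in untreated samples. Their log2 ratios of control to untreated means, 0.210 and 0.288, rest on the added 0.5 CPM. With 0.1 CPM added instead, neither gene would be selected.

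P2rx7, a channel opened by extracellular ATP, was at 2.28, 2.67 and 2.71 CPM in RVO samples, 1.03, 1.11 and 1.11 CPM in control samples and 1.45, 1.20 and 1.18 CPM in untreated samples. Il1rap, the shared co-receptor of the interleukin 1 family, was at 36.3 ± 10.1 CPM in RVO and 15.7 ± 1.68 CPM in control samples, and Nfkbiz, a nuclear regulator of NF-kappaB targets, at 26.3 ± 1.62 and 17.1 ± 1.10 CPM (SD, n = 3). Fcer1g and Plek, signalling proteins of leukocytes, were at 9.71 ± 0.281 and 27.0 ± 2.42 CPM in RVO samples. Colec12, Cd300a, Trim38, Evi2a, Igkc and Orm2 were below 6 CPM, and Igkc and Orm2 had at most 4 reads in any control sample. The 12 markers of monocytes and macrophages summed to 344 to 441 CPM in RVO, 141 to 194 CPM after control laser and 41.3 to 47.2 CPM in untreated samples. In RVO versus control edgeR called 4 of them higher, compared to 2.7% of all genes tested, and DESeq2 called 8. The 12 neutrophil markers summed to 50.7 to 116 CPM in RVO, 9.65 to 26.6 CPM after control laser and 0.565 to 1.57 CPM in untreated samples. Elane was at 0 in all RVO samples. Of the 6 neutrophil markers tested, edgeR called 0 higher (6 at an unadjusted p under 0.05), and DESeq2 called 6 higher. The 8 microglia markers, in contrast, summed to 38.7 to 63.1 CPM in RVO, 57.9 to 69.7 CPM after control laser and 100.2 to 158 CPM in untreated samples, and DESeq2 called 5 of them lower in RVO versus control (edgeR 0, with 5 lower at an unadjusted p under 0.05). The part of these cells in the levels of the immune members was not tested.

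Enzymes and other metabolic genes counted 7. Sgms2, a sphingomyelin synthase, was at 9.35, 8.24 and 11.2 CPM in RVO samples, 4.20, 3.97 and 4.06 CPM in control samples and 4.69, 3.81 and 3.28 CPM in untreated samples. Clybl, a mitochondrial lyase, was at 18.1, 22.0 and 17.7 CPM in RVO, 9.47, 9.90 and 10.4 CPM after control laser and 9.61, 8.41 and 8.99 CPM in untreated samples. Prelid2, of a family of lipid transfer proteins, was at 2.48, 1.92 and 2.57 CPM in RVO, 0.560, 0.900 and 0.598 CPM after control laser and 0.727, 0.283 and 0.787 CPM in untreated samples. Pgm1, a phosphoglucomutase by its name, was at 21.2 ± 3.13 and 12.0 ± 0.576 CPM in RVO and control samples (SD, n = 3). Ust, Ccdc58 and Lactb2 had ratios of means between 1.65 and 1.74.

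Membrane trafficking and signalling accounted for 9 genes. Gprc5a, an orphan receptor induced by retinoic acid, was at 3.07, 2.23 and 1.90 CPM in RVO samples, 0.373, 0.635 and 0.512 CPM in control samples and 0.242, 0.424 and 0.459 CPM in untreated samples. Rab17, a small GTPase of epithelial cells, was at 2.17, 1.38 and 1.71 CPM in RVO, 0.466, 0.265 and 0.427 CPM after control laser and 0.242, 0.424 and 0.131 CPM in untreated samples. Rab38, which sorts cargo to melanosomes, was at 4.82 ± 0.985 CPM in RVO and 2.03 ± 0.396 CPM in control samples (SD, n = 3). The 10 markers of pigment epithelium and melanocytes, none of them at 0, summed to 519, 1047 and 719 CPM in RVO 1, RVO 2 and RVO 3, against 553 to 610 CPM after control laser and 562 to 598 CPM in untreated samples, and 0 of the 10 were called by edgeR (5 higher and 1 lower at an unadjusted p under 0.05, and 2 higher by DESeq2). Their part in the level of Rab38, which was highest in RVO 2 as well, was not tested. Chml, a Rab escort protein, shares exons with Opn3 on the same strand, so its level of 25.3 ± 3.66 CPM in RVO and 12.9 ± 0.624 CPM in control samples is uncertain. Gng12, Dennd1c, Dennd2c, Mrgprf and Rgs14 were the others.

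The last 16 genes were placed in no group. Aknaos, antisense to Akna, was at 1.62, 1.29 and 1.66 CPM in RVO samples, 0.420, 0.212 and 0.342 CPM in control samples and 0.242, 0.565 and 0.197 CPM in untreated samples. Akna itself had means of 57.5, 52.9 and 52.7 CPM in RVO, control and untreated samples. Whether the strand was used in counting is not given in the sources used here, and without it reads of Aknaos and Akna cannot be told apart. Upk3bl, of the uroplakin family, was at 3.72, 3.34 and 4.76 CPM in RVO, 1.77, 1.59 and 1.79 CPM after control laser and 1.86, 1.77 and 1.84 CPM in untreated samples. The pseudogene Gm14857 was at 1.10, 0.935 and 0.761 CPM in RVO, 0.187, 0.159 and 0.213 CPM after control laser and 0.162, 0.141 and 0.0656 CPM in untreated samples. The remaining genes (Fetub, 2010204K13Rik, 4933421A08Rik, Gm7932, Fhad1, Tcam1, Fam71f2, Fam129a, Gm14230, Rsph3b, Susd1, Gm37691 and Tstd2) had mean RVO levels from 0.952 CPM for Gm7932 to 37.6 CPM for Fam129a. In all, 6 members share exons with another gene on their strand and 24 overlap a gene on the opposite strand.

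**Figure D2:**
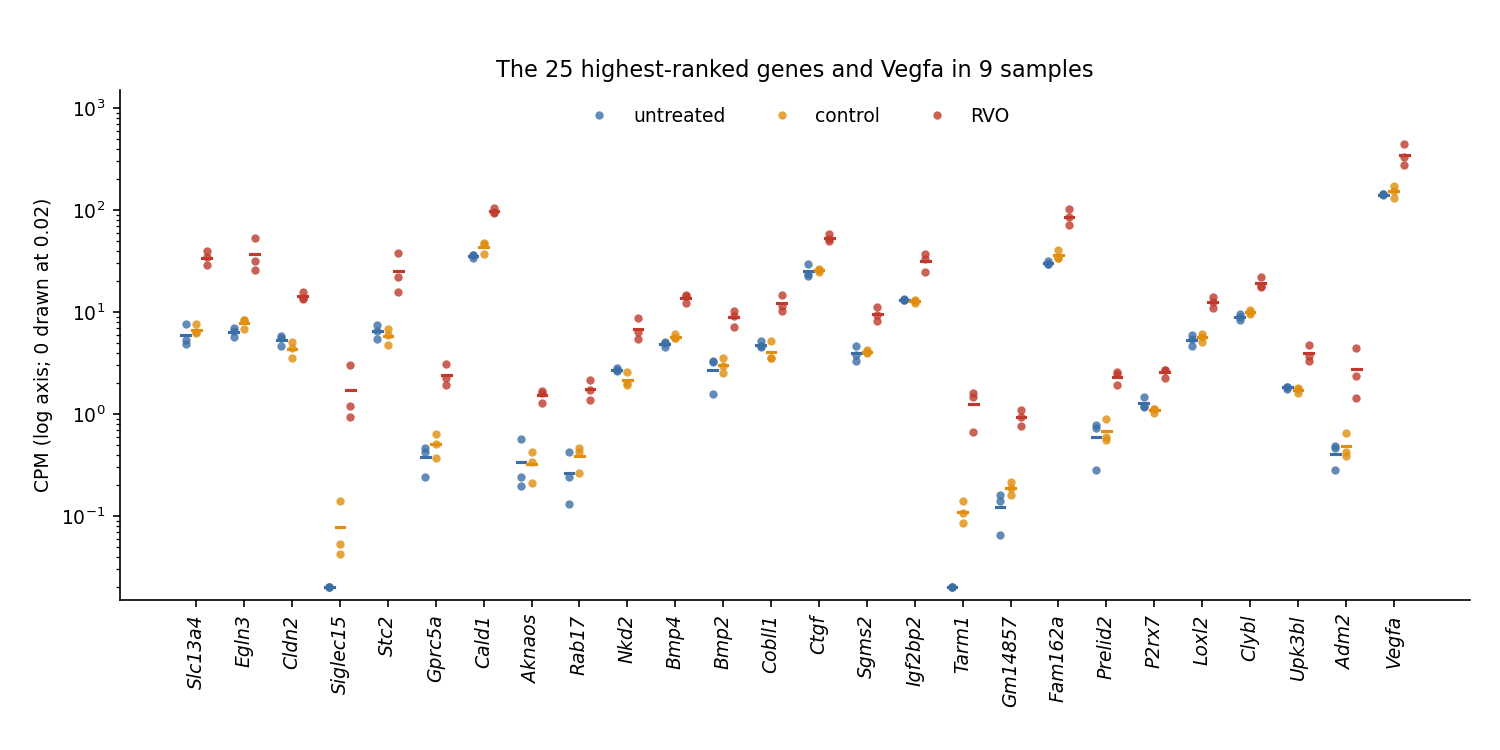
Each point is the CPM of a pool (log axis, 0 drawn at 0.02) in untreated, control and RVO samples, for the 25 genes with the highest ratio and Vegfa, in order of rank, and short lines are group means (n = 3). The RVO points lie above all others for every gene, while the absolute level differs widely between genes, from about 1 CPM for Gm14857 to 440.4 CPM for Vegfa.

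The limit of the selection was not a natural break. The last members were Naa50, Tgfbr3, Nsun2, Krt6b and Nup37, with ratios of 1.34, 1.34, 1.34, 1.33 and 1.33, and the first genes outside were Gm3531, Slc16a9, Acoxl, Areg and Gadd45a with ratios of 1.33 each. Gadd45a, a growth arrest gene, was at 45.7, 40.2 and 46.7 CPM in RVO and 29.1, 30.1 and 28.5 CPM in control samples. The ratios thus changed little across the limit.

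With edgeR, fitted by quasi-likelihood to the RVO and control samples only and with a limit of 0.01 on the Benjamini-Hochberg adjusted p, 42 of the 99 members that passed the count filter were called higher in RVO versus control and 0 lower. Orm2 did not pass the filter. Over all 16874 genes tested, 2.7% were called higher. As the members were selected on this contrast, nothing is read from the difference. Their lowest log2 fold change was 0.45 and the median was 1.16, compared to 0.02 for all genes tested. At an adjusted p under 0.05, all 99 members were called, against 17.5% of all genes. The number at 0.01 changed when 1 sample was left out. It was 94 without RVO 2, when 2942 of all 17199 genes tested were called higher. Without RVO 1 it was 3, against 29 of all 17149 genes. It was 0 without RVO 3 or without any 1 of the control samples, when 0 or 1 of all genes were called higher. In the fits with 0 calls the median log2 fold change of the members was 1.10 to 1.24, which also follows the selection. The reason for the change in calls was not tested. DESeq2, fitted to all RVO and control samples, called 96 members higher, and 1877 of all 17050 genes.

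In control versus untreated, 82 members were tested, and the 18 others had too few reads. With edgeR 0 were called higher (0 at an unadjusted p under 0.05, and 0 of 94 by DESeq2) and 4 (Chml, Lactb2, P4ha1 and Naa50) were called lower, whereas 27.2% of all 16066 genes were called higher and 25.2% lower. The median log2 fold change of the members was -0.06 (range -0.49 to 0.30), as imposed by the selection, and it was 0.11 with library size alone, which moved the median of all genes from 0.01 to 0.19. By CPM, however, the control mean was above the untreated mean for 74 of the 100 genes. In RVO versus untreated, 84 of 99 members were called higher, compared to 27.4% of all 16380 genes tested, which again follows the selection, and this number was between 45 and 53 without any 1 of the untreated samples.

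**Figure D3:**
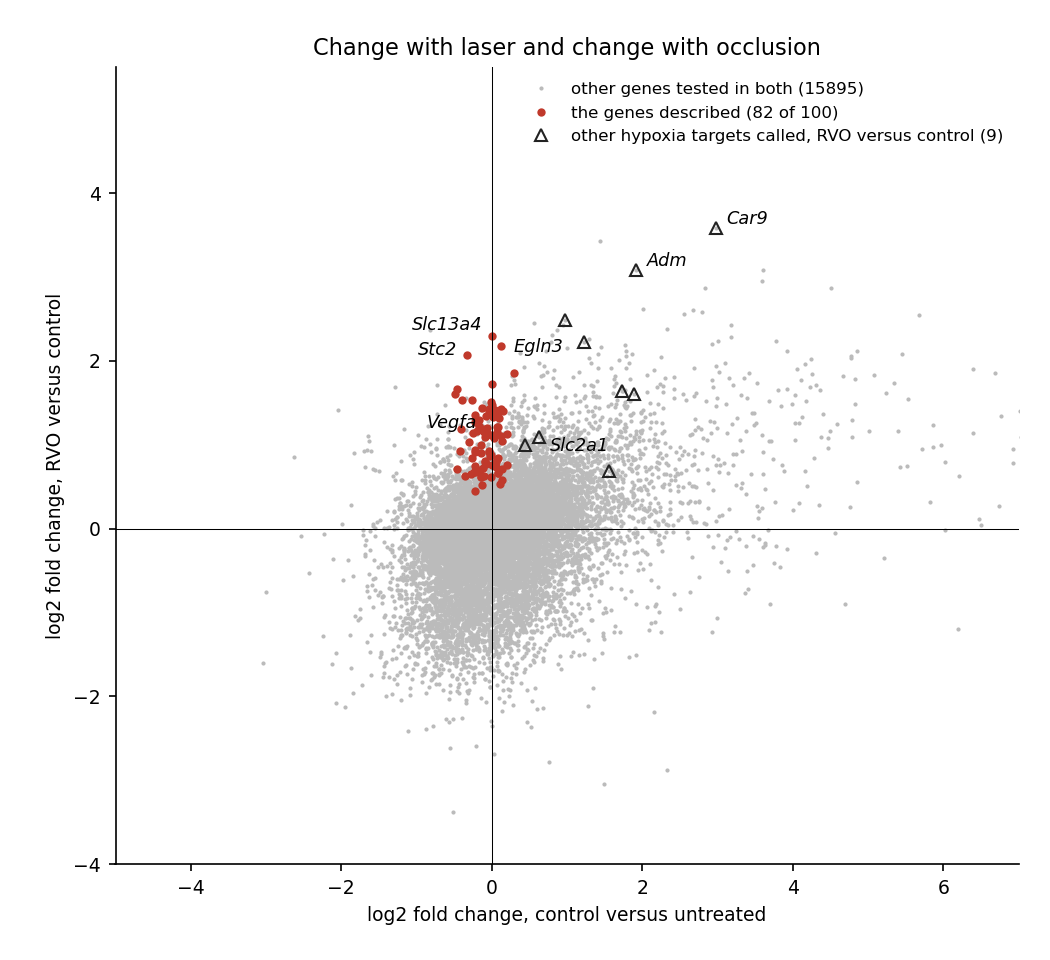
Each point is a gene tested in both fits (15977 genes, of which 24 lie outside the axes), with the log2 fold change of control versus untreated on the x axis and of RVO versus control on the y axis. The control samples enter both axes. The 82 tested members (red) form a column around 0 on the x axis because of the selection, and 9 other called HIF targets (triangles) lie to the right of it.

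A list of 53 known HIF targets was used to place the members among genes of the same pathway. Of these, 6 were members (Egln3, Vegfa, Stc2, Fam162a, Ero1l and P4ha1). Of the 53 genes, edgeR called 15 higher in RVO versus control, compared to 2.7% of all genes tested. It called 0 lower (4 lower at an unadjusted p under 0.05, and 1 by DESeq2). Egln3, Vegfa, Stc2, Fam162a and P4ha1 among the 15 were selected on this contrast, so their calls follow the selection. The median log2 fold change of the 53, with the 6 members included, was 0.67 (0.02 over all genes tested). Among the other 10 called genes were Adm, Car9, Ndufa4l2, Slc2a1, Apln, Angptl4, Mif, Gys1 and Plin2. Each of these 10 was also called higher in control versus untreated, which is why the selection had left them out. Adm, the vasodilator peptide adrenomedullin, was at 30.5 ± 8.79 CPM in RVO, 3.45 ± 0.946 CPM after control laser and 0.794 ± 0.337 CPM in untreated samples (SD, n = 3). Its log2 fold change was 3.08 ± 0.27 (SE) in RVO versus control (edgeR, Benjamini-Hochberg adjusted p = 0.00459) and 1.92 ± 0.32 in control versus untreated (edgeR, adjusted p = 0.000164). Slc2a1, the glucose transporter of the blood-retina barrier, was at 601 ± 97.8, 292 ± 14.0 and 191 ± 12.0 CPM. The number of 15 became 29 without RVO 2, 3 without RVO 1, and 0 without RVO 3 or any 1 of the control samples. Over all genes tested, these fits called 2942, 29, and 0 or 1 higher.

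**Figure D4:**
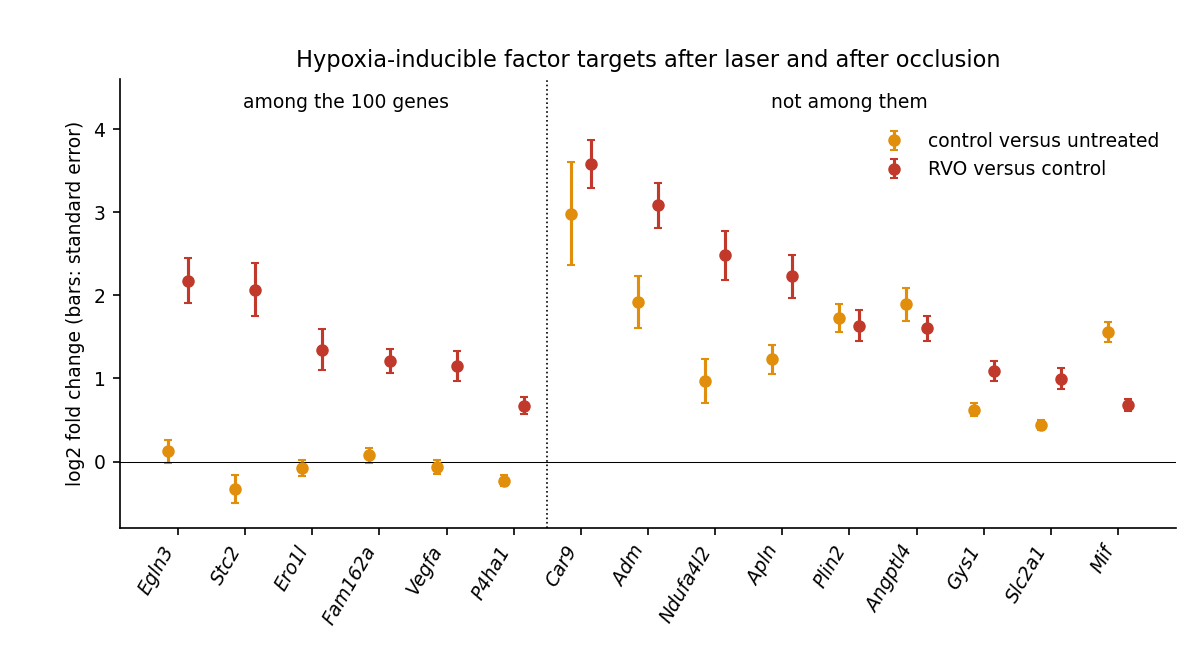
Points are log2 fold changes with their standard errors (bars) for the 6 HIF targets among the 100 genes (left) and 9 further targets that were called higher in RVO versus control (right). On the left the values of control versus untreated are between -0.33 and 0.12, on the right they range from 0.44 for Slc2a1 to 2.98 for Car9.

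Glycolysis enzymes were not among the members. In RVO versus control 0 of 16 were called by edgeR, with 9 higher and 3 lower at an unadjusted p under 0.05, and DESeq2 called 5 higher and 2 lower. The median log2 fold change was 0.30, and 8 of 16 were called higher in control versus untreated. Ldha, which turns pyruvate into lactate, had a log2 fold change of 0.44 ± 0.10 (edgeR, adjusted p = 0.0155) and Pfkm, the muscle type phosphofructokinase, of -0.76 ± 0.14 (edgeR, adjusted p = 0.0125). Gapdh was listed at only 22.8 ± 2.86 CPM in RVO samples and has many processed pseudogenes, therefore its value is uncertain. Among 10 genes for HIF subunits and oxygen sensors, edgeR called only Egln3 in RVO versus control, and DESeq2 called 2 higher. Egln3 was selected on this contrast, so its call follows the selection. Hif1a had a log2 fold change of -0.25 ± 0.09 (edgeR, adjusted p = 0.0639) and Epas1 of -0.17 ± 0.09 (edgeR, adjusted p = 0.163).

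In the list of the unfolded protein and integrated stress response, with Stc2 and Creld2 as members, edgeR called 7 of 31 genes tested higher in RVO versus control, compared to 2.7% of all genes, and the median log2 fold change was 1.05. These were Stc2, Atf3, Atf5, Cebpb, Aldh1l2, Phgdh and Slc7a11. Of 18 NRF2 targets, with Gclm as a member, 5 were called higher, of 39 angiogenesis genes, with Vegfa as a member, 9, and of 18 endothelial tip cell genes 3. Stc2 among the 7, Gclm among the 5 and Vegfa among the 9 were selected on this contrast. Their calls therefore follow the selection. DESeq2 called 27, 13, 18 and 8 genes of these 4 lists higher, and 1877 of 17050 over all genes. No gene of these 4 lists was called lower by edgeR, with 5 angiogenesis and 3 tip cell genes lower at an unadjusted p under 0.05 and 3 and 3 called lower by DESeq2. No member was found among 24 neurogenic factors, 18 axon injury genes or 21 cell cycle genes. Of these, edgeR called 4, 6 and 2 higher and 1, 0 and 0 lower (5, 6 and 1 lower at an unadjusted p under 0.05), and DESeq2 called 10, 9 and 4 higher and 3, 4 and 0 lower. Without RVO 3, the second or the third control sample, edgeR called 0 of all genes tested.

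The order of the RVO samples differed between the role groups, which were formed after the values had been seen. All 9 genes of the group of protein folding, mitochondria, oxidant defence and stress signalling were highest in RVO 1 and lowest in RVO 2, and all 9 RNA and translation genes were lowest in RVO 2. The median level in RVO 1, RVO 2 and RVO 3 was 122%, 76.4% and 98.3% of the RVO mean for the stress genes, and 119%, 98.5% and 84.2% for the 8 hypoxia genes. Of the hypoxia genes, 7 were highest in RVO 1 and 6 lowest in RVO 3. Growth factor and patterning genes showed no such order, with 7 of 13 highest in RVO 2. Among all 1795 genes that met the same limits with no overlap of RVO and control, 77.5% were lowest in RVO 2. In RVO 1, 57.4% of them were highest, and in RVO 2 9.08%.

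Genes of the same pathways that were not members gave separate values. All 29 other genes of the unfolded protein and integrated stress response with a mean RVO count of at least 20 were highest in RVO 1, and 27 of them were lowest in RVO 2. The median level in RVO 1, RVO 2 and RVO 3 was 129%, 70.7% and 100.3% of the RVO mean. Of 47 other HIF targets, 24 were lowest in RVO 3, while 20 were highest in RVO 1 and 19 in RVO 2. Of 16 glycolysis enzymes 13 were lowest in RVO 3, and 8 each were highest in RVO 1 and RVO 2. Among all 6388 genes within the limits of the selection, 22.4% were lowest in RVO 3, 37.1% highest in RVO 1 and 37.5% highest in RVO 2. In RVO 2, 46.2% were lowest, and 77.5% of the 1795 genes without overlap of RVO and control. These limits leave out genes changed by laser. Of the 31 stress response genes tested in control versus untreated, in contrast, 18 were called higher. Markers of red blood cells were also highest in RVO 1, with sums of 213, 52.2 and 85.8 CPM in RVO 1, RVO 2 and RVO 3, against 29.2 to 32.2 CPM in control samples, and their relation to the stress genes was not tested.

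**Figure D5:**
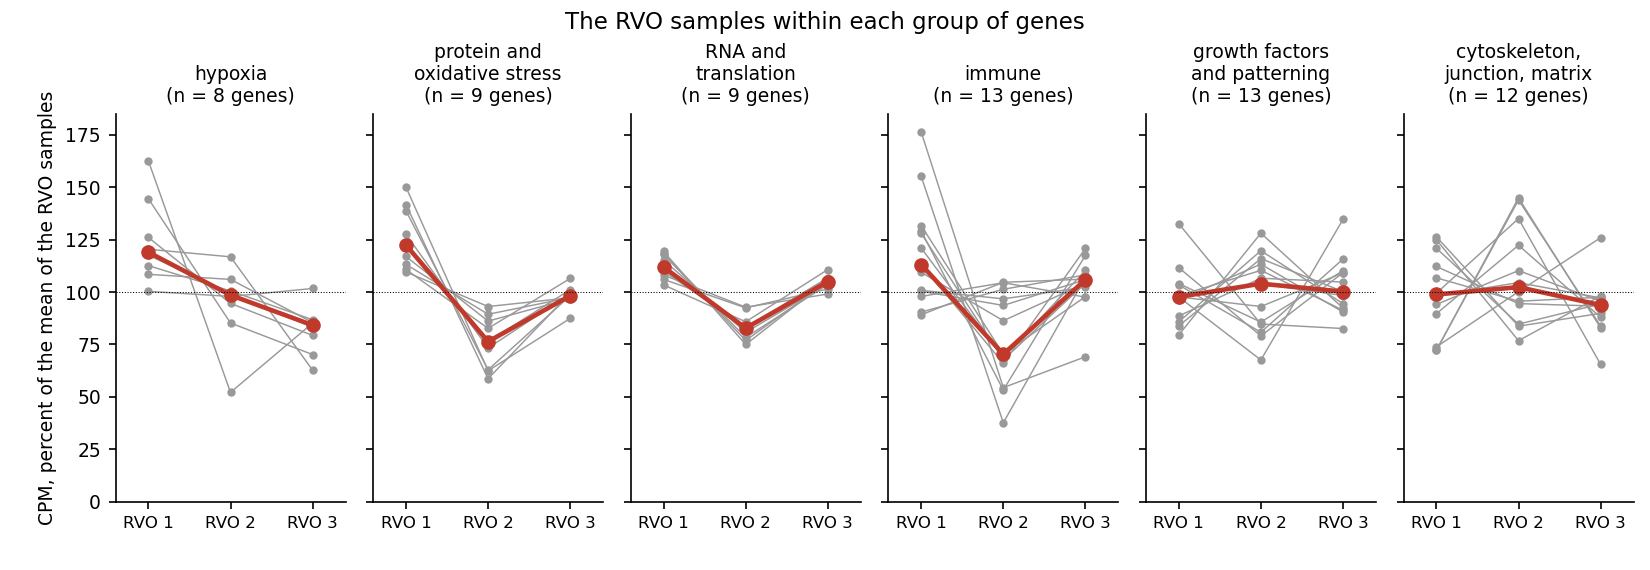
For 6 groups of members, each grey line connects the CPM of a gene in RVO 1, RVO 2 and RVO 3, given in percent of its mean over these samples, and red is the median of the group. Stress and RNA genes dip in RVO 2 (medians of 76.4% and 82.8%), and the median of the hypoxia genes is lowest in RVO 3 (84.2%). The median of the growth factor genes stays near 100%, while single genes of this group run from 67.6% to 134.7% (both Fgfbp1).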

How the data were processed

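RNA from 9 retina pools was sequenced. According to the study's methods, the authors mapped reads with STAR 2.5.2b to the mouse genome with Gencode annotation and counted them per gene with featureCounts (Subread 1.5.1). The deposited values are raw counts per gene without normalization, and 92 spike-in names had 0 counts. Handling of reads with several matches and of strand is not given in the sources used here.

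CPM were computed from column sums, and members were taken by the rule described above. The members, gene lists and role groups were chosen with earlier results of these data known. Values in every sample are given for the 25 genes with the highest ratio and for members in a fixed pathway list, and other genes are named from those lists. Sap30, Gja1, Fzd4, Slc26a7 and genes that overlap a member were chosen after their values were seen, and the 5 genes just outside the limit are named once. Each pair of groups was fitted over all genes with edgeR 4.0.16 (TMM, filterByExpr, quasi-likelihood F-test, p adjusted by Benjamini-Hochberg and called under 0.01) in R 4.3.3, with DESeq2 1.42.0 as an alternative, and the fit was tested on simulated data. Wilson intervals cover counting error only. Further alternatives were other scalings, no filter, all samples in 1 fit, the replicate number as a block, each sample left out, and other settings of the selection. A few genes of these lists are not reported here by name.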

Additional observations from a re-analysis of the deposited data

How the results depend on the processing

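Membership depended on the settings. Of the 100 genes, 61 were kept with CPM on TMM-scaled library sizes, 65 with a pseudocount of 2, 51 with a limit of 0.5 on control against untreated, and 65 when ranked by group means. Leaving out 1 sample kept 50 (without RVO 2) to 89 genes. In the other 4 settings 69 to 83 were kept, and 14 genes, among them Stc2, Bmp2, Ctgf and Loxl2, were kept in all 17. The share with a HIF core was 52.8% in the upstream bases alone.

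In RVO versus control, 563 genes were called, with 42 members and 15 HIF targets higher. At an adjusted p under 0.05 these numbers were 5836, 99 and 34. Without a filter they were 3309, 92 and 28, by the DESeq2 Wald test 4038, 96 and 31, and in the fit of all 9 samples 3853, 90 and 29. Library size alone gave 892 genes. Leaving out 1 sample gave 0 to 6257 genes, 0 to 94 members and 0 to 29 HIF targets. Without RVO 3 or any 1 control sample, when edgeR called 0 members, 6100 to 6916 genes had an unadjusted p under 0.05.

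Correlations of deviations from the group means were -0.225, -0.219 and 0.130 for RVO and control samples of equal number. For unequal numbers they ran from -0.339 to 0.327. Deviations within a group of 3 sum to 0, so these correlations depend on each other. They cannot show whether pools of equal number held eyes of the same mice. With the replicate number as a block, edgeR called 0 genes, 0 members and 0 HIF targets, with 7227 genes at an unadjusted p under 0.05.

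In control versus untreated, 4 members were called. This was 11 at an adjusted p under 0.05, 1 with library size alone, 1 in the fit of all 9 samples, and 1 to 6 when 1 sample was left out. In RVO versus untreated, 84 members were higher, and 45 to 90 when 1 sample was left out. Library size alone changed the share of higher genes among those called from 51.9% to 70.4% in control versus untreated and from 52.7% to 68.5% in RVO versus untreated.

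Of 360 alternative log2 fold changes of 30 named members in RVO versus control, 359 moved by less than the spread between samples. This spread is that of a difference between single samples, which is a wide limit for fits of whole groups. Of the 360, 0 changed sign. The selection had put every RVO sample above every control sample, so the sign was nearly fixed and nothing is read from it. Depth limits the 39 genes under 5 CPM.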
